A study of Mus musculus with 87 samples.

Results

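The cytosolic ribosomal protein genes encode the proteins of the ribosome that works in the cytoplasm, as opposed to the ribosome of the mitochondrion. They were taken as the protein-coding rows of the expression table whose symbol starts with Rpl (large subunit) or Rps (small subunit) followed by a number or by p0 to p2, leaving out pseudogene names and the Rps6 kinases, with a mean log2 RPKM above 3 in unoperated livers at 0 h. RPKM is mapped reads scaled to the length of the gene model in kilobases and to the depth of the library. The rule gave 82 genes, 49 of the large and 33 of the small subunit, of 37991 genes in the table and 15396 detected in at least 1 library (log2 RPKM above -1.5). The threshold used the levels at 0 h, so those levels describe the choice and carry no test. At least 1 symbol did not match the label: Rps19bp1 is named for a protein that binds Rps19 and is not itself a ribosomal protein, and it was kept because the rule names it. Rows such as Rpl7l1 and Rps4y2 were also kept by name. Whether their proteins are part of the ribosome was not checked.

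The libraries came from poly(A) RNA of whole livers of male C57BL/6 mice, kept on a day of 12 h light and 12 h dark and fed only in the dark before the operation. The mice were 12 to 14 weeks old at the operation, so those taken 1 week or 4 weeks after PH were older at collection. The age of the unoperated mice is not given separately. Time of day is given as zeitgeber time (ZT), the hours after lights on. Partial hepatectomy (PH), the removal of most of the liver, or a sham laparotomy without removal was done at ZT2. Post-PH livers (X) were taken at 1 h (n = 6), 4 h (n = 3), 10 h (n = 6), 20 h (n = 6), 28 h (n = 3), 36 h (n = 6), 44 h (n = 3), 48 h (n = 5), 72 h (n = 3), 1 week (n = 3) and 4 weeks (n = 2), and sham livers (S) at 1 h (n = 6), 4 h (n = 5), 10 h (n = 3), 20 h (n = 3) and 48 h (n = 3). Unoperated livers (C) were taken at 0 h (n = 9), at 4 h, which is ZT6 (n = 3), and at 4 weeks (n = 2). Each library came from 1 liver, and whole liver holds several cell types, so that fewer cells of a type and less RNA per cell cannot be told apart.

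A ribosome holds 1 copy of nearly every one of these proteins, so their mRNAs are needed in similar amounts and are among the most abundant of a cell. In mammals most of them begin with a 5′ terminal oligopyrimidine (TOP) tract, a C followed by a run of C and U, through which the mTOR pathway and the protein Larp1 set their translation. A hepatocyte that enters the cell cycle after PH must make new ribosomes, which also needs rRNA and the assembly factors of the nucleolus. What was measured here was mRNA, and not translation.

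The start sites of 8 members whose values are described below are shown first, followed by 4 in which no such run was found near the annotated start. Each line gives 30 bases of the sense strand from RefSeq (assembly GRCm38.p6), from 12 bases before the annotated start to 18 after it, with the pyrimidine run in capitals. Rps24 has another annotated start without a run, which is not shown.
Rps6 (chr4:86857350-86857379, minus strand): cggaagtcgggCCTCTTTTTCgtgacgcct
Rpl35 (chr2:39005114-39005143, minus strand): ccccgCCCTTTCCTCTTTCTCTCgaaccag
Rpl28 (chr7:4792953-4792982, plus strand): cctctcgtgtCTCTCTTTCCgtctccggcc
Rps24 (chr14:24490666-24490695, plus strand): gcgctggggtCCTTCCTTgcgcgttgatat
Rplp2 (chr7:141447639-141447668, plus strand): gtcagcgtCTTCCTTTCgccgccggacgcc
Rps27 (chr3:90213631-90213660, minus strand): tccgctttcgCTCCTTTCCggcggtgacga
Rpl12 (chr2:32961700-32961729, plus strand): ggagcaggatccgtCTTTTCggctttcggc
Rpl22l1 (chr3:28805496-28805525, plus strand): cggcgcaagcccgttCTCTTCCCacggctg
Rplp0 (chr5:115559455-115559484, plus strand): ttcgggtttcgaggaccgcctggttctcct
Rpl7l1 (chr17:46782639-46782668, minus strand): aggctgcgcaagcgcagtagctgaagcacc
Rpl41 (chr10:128549151-128549180, minus strand): acgggccggctcggaagtgacgacaccgag
Rps19bp1 (chr15:80264289-80264318, minus strand): ggcggaagtagctcgccgcgtgtgggcggg

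RefSeq windows of 300 bases, 250 before the start and 50 after it, were matched by symbol for 60 of the 82 members. A C followed by at least 4 pyrimidines, starting within 10 bases of the annotated start on the sense strand, was present in 36 of these 60 (60%), beside 34.4% of the 27025 genes with a window and 47% of 66 genes of the mitochondrial ribosome. A gene with several annotated starts counted as holding a feature if any of its windows held it. The letters CTTCCGG or their reverse complement CCGGAAG, a core that ETS factors such as Gabpa bind, were found in 23 of the 60 (38.3%), beside 9.93% of all genes with a window and 34.8% of those of the mitochondrial ribosome. The letters ATGGCGGC or GCCGCCAT, part of the Yy1 site, were found in 4 (6.67%), beside 2.6% of all and 16.7% of the mitochondrial set. TATAAA on the sense strand was found in 6 (10%), beside 9.77% of all. The 3 sets of letters were searched over the whole window, and the CTTCC of the first can lie within a pyrimidine run. A match is a description of the letters only. The 24 members without a pyrimidine run in this window include Rpl4, Rpl5 and Rplp0.

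In unoperated livers at 0 h the members lay between 3.29 and 8.87 mean log2 RPKM. The highest were Rplp1 (8.87), a protein of the stalk that recruits translation factors, Rps12 (8.31), Rpl4 (8.30) and Rpl32 (8.06). The lowest were Rps19bp1 (3.29), Rps15a (3.76), Rps4y2 (3.80) and Rpl7l1 (4.14), a paralog of Rpl7. The 3 other rows that matched by name, all paralogs, lay far below the threshold: Rpl3l at -9.11, Rpl39l at -12.02 and Rpl10l at the lowest value of the table. None of the 3 passed the detection level. Rpl3l was above 0 in 38 libraries, with at most 0.0861 RPKM, Rpl39l in 18, with at most 0.134 RPKM, and Rpl10l was listed at 0 in every library.

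The level of a member on this scale went with its gene model and with the share of its sequence found elsewhere in the genome. Across the 81 members with a gene model in GENCODE vM1 (mouse build NCBIM37, which is mm9), the mean log2 RPKM at 0 h had a Pearson r of -0.67 and a Spearman rho of -0.7 with the log2 of the total exon length. Exon lengths ran from 345 bases for Rps27 to 6262 bases for Rps15a, with a median of 1434. The slope was -0.8 log2 RPKM per doubling of length, and the SD over members was 1.18 for log2 RPKM and 0.9 when RPKM was multiplied by length. These values are across genes, which are not replicates, and length is part of the unit on the y axis.

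Ribosomal protein genes have many processed pseudogenes, copies of the spliced mRNA inserted elsewhere in the genome. Of 50-base windows of each member's longest transcript, a median of 50.7% were present letter for letter elsewhere in NCBIM37, from 0% to 99.7%, and 78 of 81 members had at least 1 such window. For 52 detected mitochondrial ribosomal protein genes above the same level the median was 0%. Rps27 (99.7%), Rps12 (98.1%) and Rps6 (94.7%) were almost fully duplicated, Rpl4 had 17.8% and Rps4y2 15.7%. By its methods, the study mapped reads to annotated coding sequences first and only the unmapped ones to the genome. It counted a read with several positions as a fraction at each, so part of a member's reads may stand in the rows of its copies. Reads were 100 bases, longer than these windows, and the placing of single reads was not examined. The table held 172 rows with a ribosomal protein pseudogene name, 98 of them detected, and at 0 h their summed RPKM came to 11.9% of that of the members. For Rpl36a these rows summed to 375% of the member's own RPKM and for Rpl35a to 320%. Levels of single members, and their order, are therefore uncertain.

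**Figure D1:**
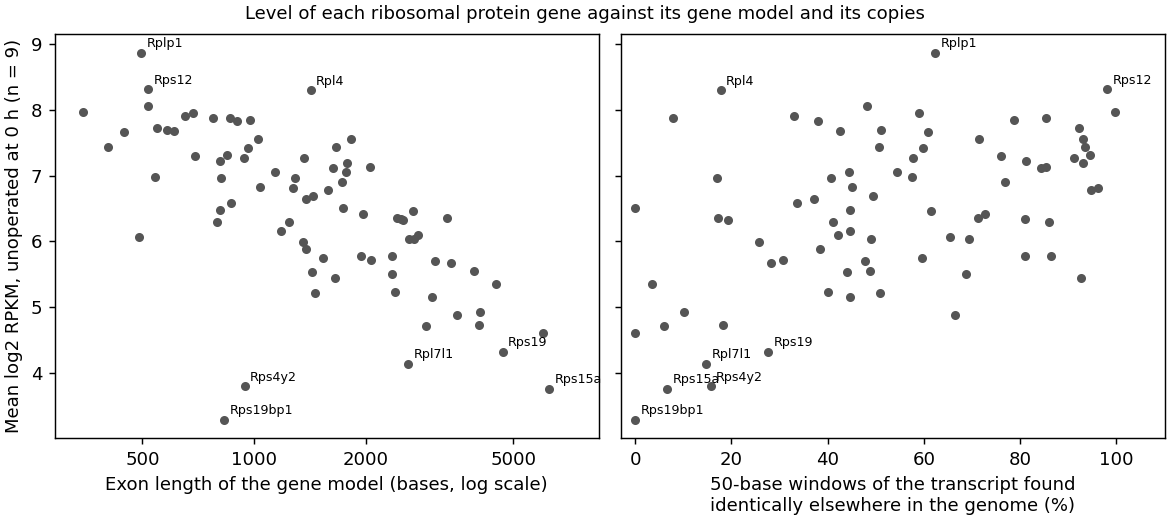
Mean log2 RPKM of each member in unoperated livers at 0 h (n = 9 libraries) against the exon length of its gene model in bases (left, log axis) and against the percent of 50-base windows of its transcript found identically elsewhere in the genome (right). Each point is 1 of 81 members. The level is lower for long gene models (r = -0.67). Several of the lowest members, such as Rps15a (6.7%) and Rps4y2 (15.7%), have a low percent of such windows, which is not a number of copies.

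The levels of the members moved together over the time course, with the lowest mean at 1 week post-PH. The mean over the 82 members of log2(RPKM + 0.25) was 6.48 ± 0.10 (SD, n = 9) at 0 h, 6.09 ± 0.18 (n = 6) at 1 h and 6.06 ± 0.06 (n = 3) at 4 h post-PH. It was 6.26 ± 0.18 (n = 6) at 10 h and 6.43 ± 0.09 (n = 6) at 20 h, and from 28 h to 72 h the group means stayed between 6.42 and 6.48. At 1 week post-PH it was 5.81 ± 0.08 (n = 3) and at 4 weeks 6.01 ± 0.05 (n = 2). Sham livers had 6.23 ± 0.16 (n = 6) at 1 h, 6.25 ± 0.06 (n = 5) at 4 h, between 6.36 and 6.37 in the 3 livers at 10 h, 6.32 ± 0.09 (n = 3) at 20 h and 6.16 ± 0.11 (n = 3) at 48 h. Unoperated livers had 6.70 ± 0.11 (n = 3) at ZT6, the highest group, and 6.06 ± 0.01 (n = 2) at 4 weeks. The 5 groups from 20 h to 48 h post-PH and the group at 72 h differed from each other by less than their SDs, apart from the 3 close libraries at 44 h. The 3 libraries at 1 week, between 5.75 and 5.90, lay below every other library but 2 at 1 h post-PH (5.88 and 5.90), which they overlapped.

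The members' share of the summed RPKM was also lowest at 1 week post-PH, but its highest group mean was at 72 h and not in unoperated livers at ZT6 (1.75% ± 0.16, n = 3). Their RPKM summed to 1.58% ± 0.11 (n = 9) of the summed RPKM of all genes at 0 h and to 1.77% ± 0.16 (n = 5) at 48 h post-PH, beside 1.37% ± 0.11 (n = 3) in sham livers at 48 h. It was 1.83% ± 0.27 (n = 3) at 72 h and 1.14% ± 0.06 (n = 3) at 1 week post-PH, and single libraries ran from 1.07% to 2.16%. The large and the small subunit stayed close: the mean of the Rpl genes minus that of the Rps genes was between -0.20 and -0.02 log2 in all 80 libraries. The group mean of this difference was nearer to equal at 72 h (-0.04) and 1 week post-PH (-0.06) than at 0 h (-0.12). In single libraries these 2 groups did not overlap with 0 h, and the shift was not tested.

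**Figure D2:**
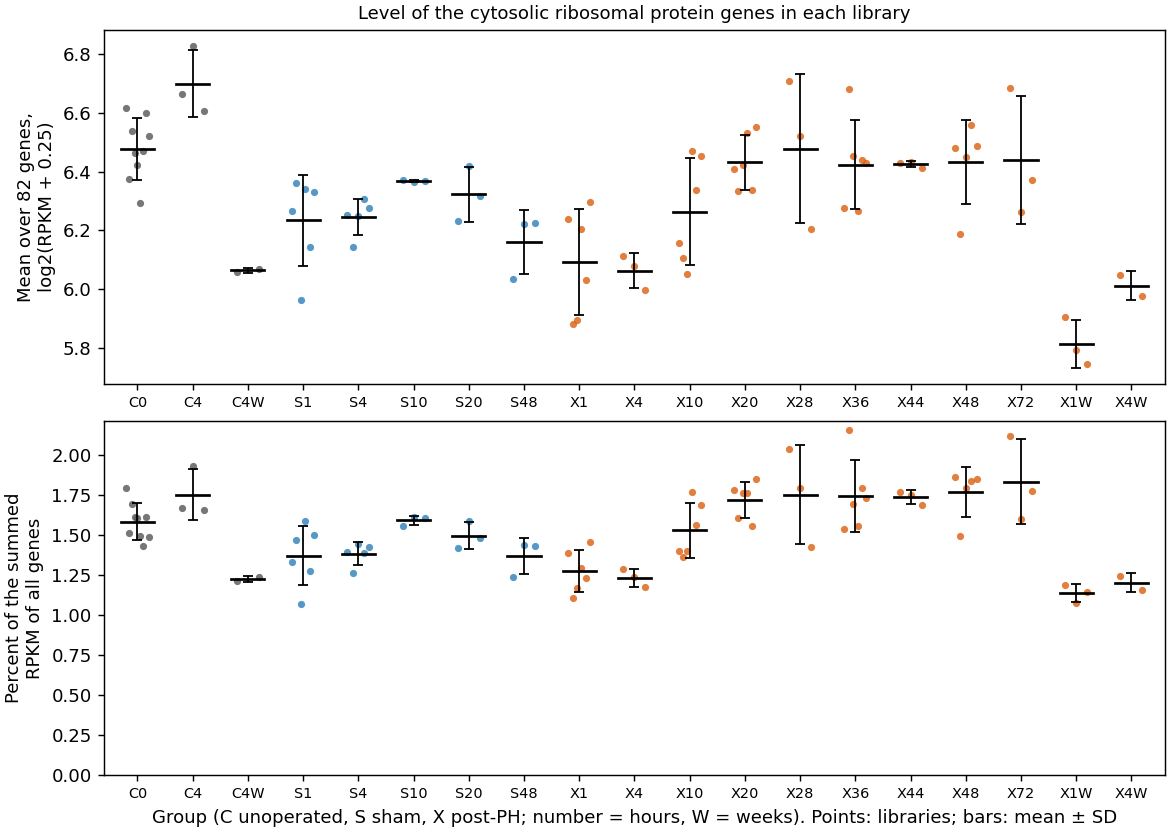
Top: mean over the 82 members of log2(RPKM + 0.25) in each library (points; black lines mean ± SD) by group, unoperated (C), sham (S) and post-PH (X), with hours or weeks (W) after the operation. Bottom: the members' RPKM as a percent of the summed RPKM of all genes. The lowest group mean is 5.81 at 1 week post-PH and the highest 6.70 in unoperated livers at ZT6.

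Against the 0 h livers the median member differed by -0.40 log2 at 1 h, -0.42 at 4 h, -0.19 at 10 h, -0.04 at 20 h, -0.01 at 28 h, -0.06 at 72 h, -0.68 at 1 week and -0.49 at 4 weeks post-PH. In sham livers it was -0.25 at 1 h, -0.23 at 4 h, -0.10 at 10 h, -0.17 at 20 h and -0.30 at 48 h. At 1 h all 82 members lay below their 0 h mean in sham and in post-PH livers alike, in sham livers 77 did at 4 h and 80 at 48 h, and at 1 week post-PH 81 did. The median over all genes was -0.12 at 1 h, -0.14 at 4 h and -0.03 at 48 h in sham livers. Post-PH it was -0.11 at 1 h, -0.20 at 4 h and 0.12 at 1 week. With libraries set to a common median, the median member differed by -0.11 at 1 h and -0.10 at 4 h in sham livers. Post-PH these values were -0.31 and -0.24. The small differences at 20 h, 28 h and 72 h post-PH changed sign with the scale: they were 0.12, 0.13 and 0.20 with RPKM rescaled to the same sum in each library, and -0.28, -0.07 and -0.45 with libraries set to a common median. Unoperated livers taken at 4 weeks were also 0.43 below on this scale (81 of 82 members below), so the level at 4 weeks was low with and without PH. The members were chosen by their level at 0 h, and these differences carry no test.

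The comparison of post-PH with sham livers at the same hour asks which changes follow the loss of liver tissue and not the operation. At most 5 members were called at any hour up to 20 h, and 44 at 48 h, in a comparison where much of the transcriptome moved the same way. The early counts depended on the fit: 20 were lower at 4 h when those groups were fitted alone, and at 20 h 21 were higher with RPKM rescaled to the same sum, 32 with libraries centred on short abundant genes and 0 with libraries set to a common median. Tests were limma on log2(RPKM + 0.25) over all 15396 detected genes, called at a Benjamini-Hochberg adjusted p below 0.05. Shares of all genes are given for this fit only. Under other scalings, filters or sets of libraries they were not computed. Counts there show only how the calls of the members depended on the setting. At 1 h 0 of 82 members were called higher (0.727% of all genes) and 0 lower (0.0779%), 18 members had an unadjusted p under 0.05, and 80 of 82 had a value below 0, with a median of -0.15 beside 0.01 over all genes. At 4 h 0 were higher (4.38% of all genes) and 5 lower (9.94%), with a median of -0.18 beside -0.04. At 10 h 0 were higher (5.72%) and 0 lower (6.06%), 5 had an unadjusted p under 0.05, and the median was -0.11. With post-PH replicates 1 to 3 alone 20 were lower at 10 h, and with replicates 4 to 6 alone 0. The member means of the former were 6.16, 6.11 and 6.05 and those of the latter 6.47, 6.34 and 6.46, beside 6.36 to 6.37 in sham livers. By the study's supplement the sham livers at 10 h and 20 h came from 1 experimental period and the post-PH livers from more than 1, and which replicate came from which is not given in the sources used here. At 4 h both groups came from more than 1 period, but only post-PH replicates 4 to 6 were used. At 20 h 5 were higher (9.02%) and 0 lower (3.9%), with a median of 0.10 beside 0.07. At 48 h 44 were higher (40.9%) and 0 lower (3.9%), with a median of 0.27 for members and for all genes alike. When libraries were instead set to a common median over detected genes, 1 member was higher and 23 were lower at 48 h, with a median of -0.22, so the direction at 48 h depended on the scale. Without S48 replicate 1 the count at 48 h was 15.

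**Figure D3:**
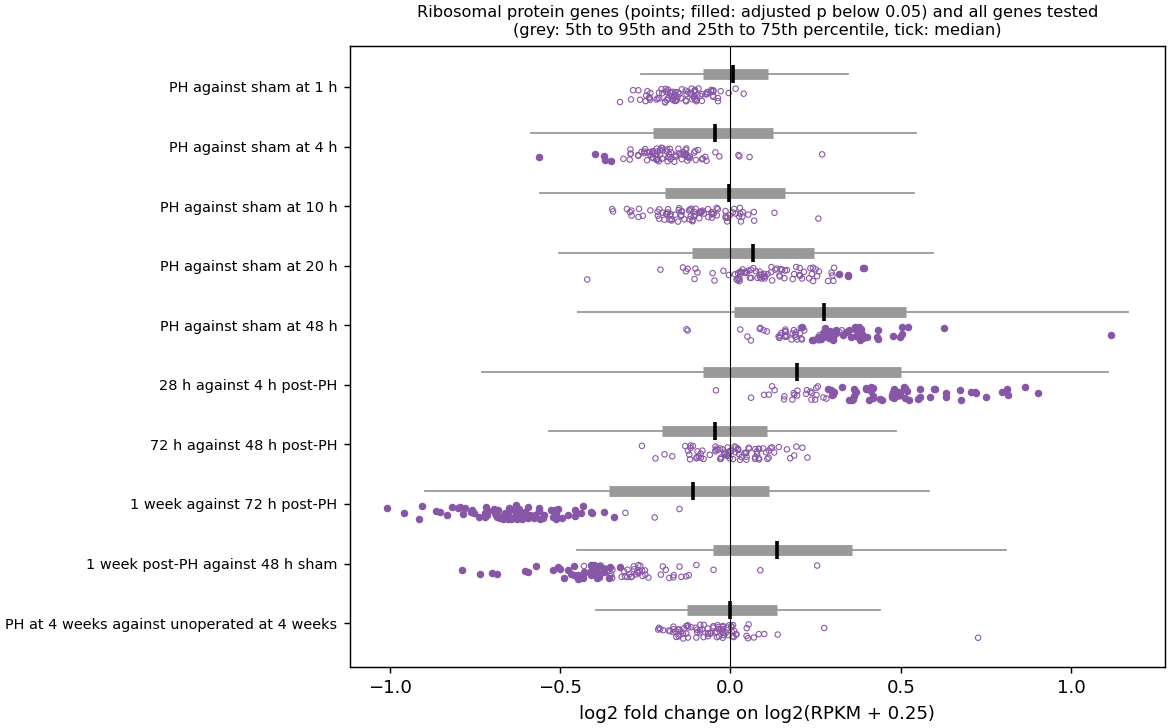
log2 fold changes of the 82 members (points, filled where the adjusted p is below 0.05) in 10 comparisons, with the spread of all 15396 genes tested above them (thick grey bar 25th to 75th, thin line 5th to 95th percentile, black tick median). At 48 h the members sit around the median of all genes (0.27), and at 1 week against 72 h they sit at -0.64 while the median of all genes is -0.11.

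At 4 h the members that fell most against sham were Rps19bp1, Rpl13a and Rpl7l1. Rps19bp1, known as a regulator of the deacetylase Sirt1, had 7.52, 6.20 and 6.78 RPKM in the 3 post-PH livers and 9.70, 9.71, 12.3, 9.92 and 9.45 in the 5 sham livers. The groups did not overlap, and the difference was -0.56 log2 (SE 0.136, adjusted p = 0.00213). Rpl13a, a large subunit protein that also binds mRNA outside the ribosome, had 53.6, 48.9 and 47.0 RPKM post-PH and 61.4, 62.5, 70.0, 70.0 and 64.9 in sham livers (-0.40, SE 0.107, adjusted p = 0.00637). Rpl7l1 had 22.9, 20.0 and 20.2 RPKM post-PH and 24.4 to 31.1 in sham livers (-0.37, SE 0.114, adjusted p = 0.0179). The other 2 called were Rplp2 and Rps21. Leaving out 1 library gave counts between 1 and 4: 1 without X4 replicate 6, 2 without X4 replicate 5 or S4 replicate 3, and 3 without X4 replicate 4 or S4 replicate 4.

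At 20 h, before most hepatocytes divide, the members that rose most were Rpl27, Rpl12 and Rpl6, all of the large subunit. Rpl27 had 58.3, 50.4, 50.7, 58.8, 48.6 and 57.7 RPKM in the 6 post-PH livers and 38.4, 45.0 and 40.0 in the 3 sham livers. Every post-PH liver was above every sham liver, and the difference was 0.39 log2 (SE 0.104, adjusted p = 0.00767). Rpl12 had 83.0, 71.2, 76.0, 69.8, 58.02 and 69.4 RPKM post-PH and 49.2, 57.96 and 55.4 in sham livers (0.39, SE 0.121, adjusted p = 0.0232). The groups did not overlap, but the lowest post-PH liver (58.02) lay next to the highest sham liver (57.96). Rpl6 had 75.8 to 100.2 RPKM post-PH and 64.3, 77.6 and 63.1 in sham livers (0.34, SE 0.0999, adjusted p = 0.015). Rps15a and Rpl9 were the other 2. The count was 0 without S20 replicate 1, 3 without S20 replicate 2 or 3 and 9 without X20 replicate 5.

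At 48 h the member furthest above sham was Rpl22l1, a paralog of Rpl22, the large subunit protein that also binds RNA outside the ribosome. Rpl22l1 had 87.8, 67.4, 74.7, 88.6 and 87.0 RPKM in the 5 post-PH livers and 33.2, 28.9 and 52.9 in the 3 sham livers. The groups did not overlap, and the difference was 1.12 log2 (SE 0.203, adjusted p = 7.42e-06). In the 9 unoperated livers at 0 h, however, Rpl22l1 ran from 36.5 to 103.9 RPKM with a median of 72.9, a 2.85-fold range that was the widest of all members (the median member ranged 1.38-fold), and the post-PH values at 48 h lie inside it. Rpl22 itself differed by -0.13 (SE 0.0976, adjusted p = 0.296). The test that the PH effect on Rpl22l1 was larger at 48 h than at 20 h gave 0.82 log2 (SE 0.283, adjusted p = 0.0395). Sham livers at 20 h had 70.8, 85.7 and 74.9 RPKM, above all 3 sham livers at 48 h. The highest group mean of Rpl22l1 was at 20 h post-PH and the lowest in sham livers at 48 h. The larger difference at 48 h thus went with lower sham values and not with a post-PH rise after 20 h.

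Rpl3, which lies at the peptidyl transferase centre of the large subunit, came next at 48 h. It had 192, 174, 197, 188 and 205 RPKM post-PH and 111, 115 and 148 in sham livers, without overlap (0.63 log2, SE 0.119, adjusted p = 1.71e-05). Rpl12, of the base of the stalk, had 75.3, 59.0, 69.5, 70.6 and 73.2 RPKM post-PH and 43.5, 47.3 and 54.5 in sham livers (0.52, SE 0.124, adjusted p = 0.000459). The stalk proteins rose with them: Rplp0 by 0.33 (SE 0.0917, adjusted p = 0.00238), Rplp1 by 0.39 (SE 0.133, adjusted p = 0.0138) and Rplp2 by 0.40 (SE 0.127, adjusted p = 0.0077). Rps6, the small subunit protein that S6 kinases phosphorylate downstream of mTOR, had 93.8 to 110.7 RPKM post-PH and 83.7 to 96.6 in sham livers, and its difference of 0.16 (SE 0.117) did not pass (adjusted p = 0.26). Stellate cell markers also differed at 48 h (3 of 4 higher), with a summed RPKM of 9.11 to 36.2 post-PH and 3.99 to 4.78 in sham livers. Lower were 1 of 6 hepatocyte, 1 of 5 B and T cell and 1 of 3 erythroid markers. The part of these cells in the values was not tested.

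**Figure D4:**
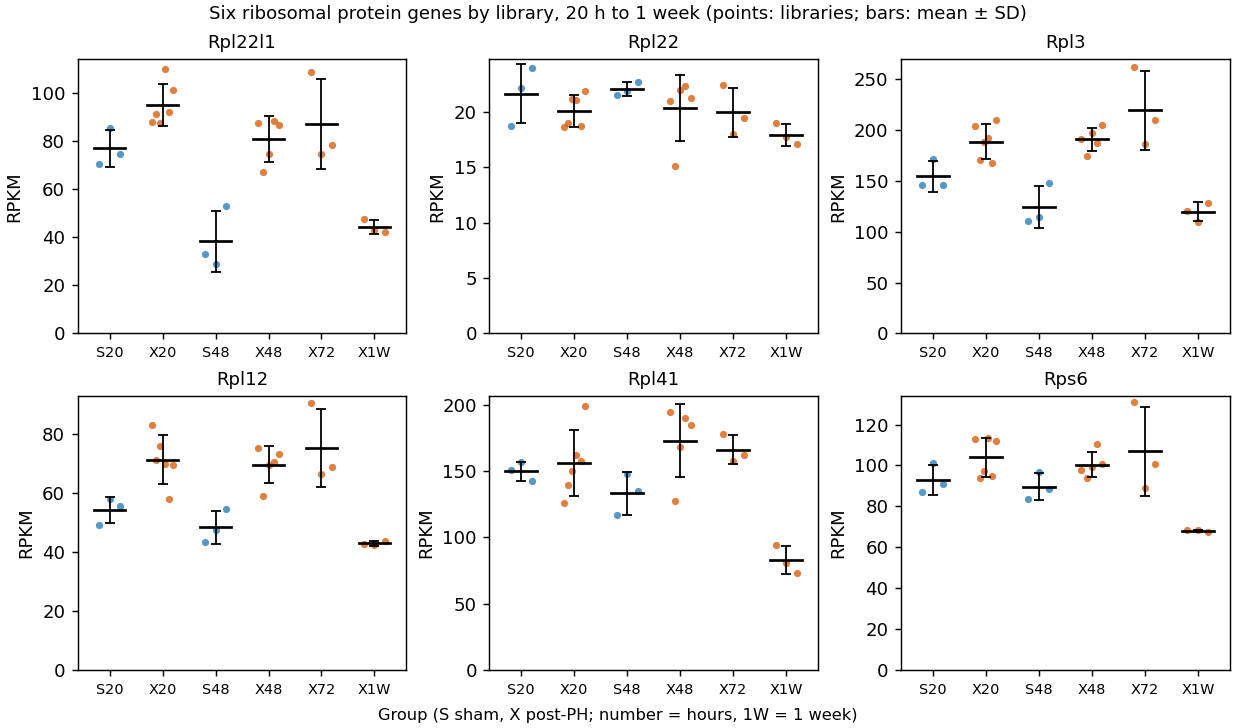
RPKM of 6 members in each library (points) of sham (S) and post-PH (X) livers at 20 h, 48 h, 72 h and 1 week, with mean ± SD. Rpl22l1, Rpl3 and Rpl12 are higher post-PH than in sham livers at 48 h without overlap, Rpl22 stays between 15.1 and 23.99 RPKM, and all but Rpl22 are lower at 1 week than at 72 h.

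The difference between the PH effects at successive hours was also tested for every gene. From 10 h to 20 h 0 members had a higher effect (0.0909% of all genes) and 0 a lower one (0.0195%), although 80 of 82 values were above 0, with a median of 0.23, and 11 had an unadjusted p under 0.05. From 20 h to 48 h 2 were higher (14.5%), Rpl22l1 and Rps19bp1, and 0 lower (0.727%). Rps19bp1 had 10.5 to 13.1 RPKM post-PH and 7.38 to 9.44 in sham livers at 48 h, and 8.23 to 9.52 against 8.78 to 10.8 at 20 h. The difference of the effects was 0.60 log2 (SE 0.189, adjusted p = 0.0203). Leaving out 1 library gave counts from 0 to 3, with 0 without S20 replicate 3 or S48 replicate 1 and 1 without S20 replicate 2, X20 replicate 3, X20 replicate 5 or X48 replicate 1, 4 or 5.

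Within the post-PH livers, groups taken at the same time of day were compared. By the study's supplement the livers at 28 h and 44 h came from 1 experimental period. Those at 4 h, 20 h and 36 h came from more than 1, and which replicate came from which is not given. At 4 h only replicates 4 to 6 were used, and these may come from a period other than that of the livers at 28 h. In comparisons between these groups, the hour and the period cannot be fully told apart, and between 4 h and 28 h possibly not at all. Between 4 h and 28 h, both ZT6, 56 of 82 members rose (31.6% of all genes) and 0 fell (7.41%), with a median of 0.41 beside 0.20 over all genes. Rpl41, the smallest ribosomal protein, went from 105, 98.4 and 94.96 RPKM to 214, 192 and 156 (0.90 log2, SE 0.161, adjusted p = 6.98e-06). Rpl35 went from 47.4, 47.5 and 42.7 to 98.8, 86.8 and 68.1 (0.86, SE 0.154, adjusted p = 6.94e-06), and Rplp2 from 39.2, 38.0 and 36.4 to 82.3, 66.1 and 54.7 (0.81, SE 0.142, adjusted p = 4.81e-06). None of the 3 overlapped between the groups. Of markers of other cell types, 3 of 4 stellate, 2 of 3 erythroid, 2 of 4 cholangiocyte, 1 of 5 macrophage, 1 of 5 neutrophil and 1 of 4 endothelial genes were also higher at 28 h. Lower at 28 h were 1 erythroid, 1 cholangiocyte and 1 neutrophil gene, and 1 of 6 hepatocyte markers. The stellate markers summed to 6.03 to 8.59 RPKM, beside 1.66 to 3.23 at 4 h. The part of these cells in the result was not tested. The count was 27 without X28 replicate 1, and 17 with libraries set to a common median.

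Between 28 h and 36 h 1 member fell (4.64% of all genes), Rpl27a, from 83.6, 72.8 and 55.3 RPKM to 50.9 to 61.9 (-0.30, SE 0.109, adjusted p = 0.0305), and 0 rose (24.4%). The hours differ here (ZT6 and ZT14). With libraries set to a common median 67 members were lower, and the share of all genes on that scale was not computed. The call of Rpl27a was lost without X28 replicate 1, X28 replicate 2 or X36 replicate 1, and the count became 2 without X28 replicate 3. Between 20 h and 44 h, both ZT22, 2 rose (21.3%) and 0 fell (4.77%). They were Rps19bp1 (0.37, SE 0.131, adjusted p = 0.0263) and Rps27l (0.29, SE 0.107, adjusted p = 0.038), a paralog of Rps27 that p53 induces. Rps27l had 81.4 to 90.9 RPKM at 20 h and 106, 102 and 108 at 44 h. The count went to 0 without X44 replicate 1 or 3, to 1 without X44 replicate 2 or X20 replicate 1, 4 or 5, and under the common median 44 members were lower. Between 48 h and 72 h, both ZT2, 0 rose (2.84%) and 0 fell (6.37%), with a median of 0.01 and 2 members at an unadjusted p under 0.05. Without X72 replicate 1, 2 members were lower.

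Between 72 h and 1 week post-PH nearly all members fell. There were no sham or unoperated livers at 1 week, and the labels give no time of day for that group. Unoperated livers at 4 weeks also had a lower member mean (6.06) than those at 0 h (6.48). An effect of PH and a change with time or handling alone cannot be told apart here. Of the 82, 79 were lower (18.1% of all genes) and 0 higher (5.38%), and all 82 values were below 0. The median was -0.64, beside -0.11 over all genes, and it was -0.65 in the large and -0.63 in the small subunit. It was also below 0 under each scaling: -0.47 with libraries set to a common median (64 members lower), -0.69 with RPKM rescaled to the same sum in each library, and -0.39 with each library centred on short abundant genes (69 lower). In the fit of the 2 groups alone, with 3 libraries each, 40 were lower.

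Rpl41 went from 178, 157 and 162 RPKM at 72 h to 94.0, 80.9 and 73.4 at 1 week (-1.01 log2, SE 0.161, adjusted p = 2.06e-06). Rpl22l1 went from 109, 74.7 and 78.7 to 47.5, 43.0 and 42.4 (-0.96, SE 0.227, adjusted p = 0.00113), and Rpl13 from 68.9, 52.2 and 52.4 to 34.9, 29.6 and 27.0 (-0.91, SE 0.175, adjusted p = 6.53e-05). For all 3 every liver at 1 week was below every liver at 72 h. The stalk protein Rplp1, the most abundant member, went from 550, 438 and 424 to 330, 295 and 275 (-0.64, SE 0.149, adjusted p = 0.000886). Rplp0 fell by 0.43 (SE 0.103, adjusted p = 0.0011) and Rplp2 by 0.69 (SE 0.142, adjusted p = 0.000188). Rps6 went from 131, 89.1 and 101 to 68.3, 68.5 and 67.5 (-0.63, SE 0.13, adjusted p = 0.000201).

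The 3 members that did not pass at 1 week were Rpl22 (-0.15, adjusted p = 0.351), Rps27l (-0.31, adjusted p = 0.0596) and Rps4y2 (-0.22, adjusted p = 0.735). A comparison added after these values were seen set 1 week post-PH against sham livers at 48 h. It gave 36 members lower (2.31% of all genes) and 0 higher (12.2%), with a median of -0.35 beside 0.14, and 77 were lower with libraries set to a common median. Stellate markers were higher in the same comparison (3 of 4), with a summed RPKM of 9.7 to 17.8 beside 3.99 to 4.78, and so was 1 of 3 erythroid markers. Of 6 hepatocyte markers, 2 were lower (Apoa1 and Hnf4a). The part of these cells was not tested. The members that fell most were Rps28 (-0.79, SE 0.212, adjusted p = 0.00762), Rps27 (-0.74, SE 0.17, adjusted p = 0.00201) and Rps29 (-0.70, SE 0.191, adjusted p = 0.00891), 3 short proteins of the small subunit. The count was 7 without X1W replicate 3, 15 without S48 replicate 2 and 20 without S48 replicate 3. Markers of erythroid cells summed to 85.0 to 93.7 RPKM at 1 week and 23.4 to 51.2 at 72 h, and those of endothelial cells to 19.6 to 24.2 and 13.01 to 14.3, while hepatocyte markers summed to 45595 to 53059 and 47380 to 57607. At 1 week against 72 h, 1 of 3 erythroid and 2 of 4 endothelial markers were higher. Lower were 1 of 5 neutrophil (Retnlg) and 1 of 6 hepatocyte markers (Cps1). No macrophage, B and T cell, stellate or cholangiocyte marker was called. The part of these cells in the fall from 72 h to 1 week was not tested.

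At 4 weeks 0 members were higher post-PH than in unoperated livers (0.0325% of all genes) and 0 lower (0.0325%), 0 had an unadjusted p under 0.05, and the median was -0.06 with 2 libraries a group. No difference was detectable with this number of livers.

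The sham and the post-PH livers at 4 h were also set against unoperated livers of the same hour. In sham livers 66 members were lower (40.6% of all genes) and 1 higher (17.3%), with a median of -0.45 beside -0.22. Post-PH 74 were lower (41.3%) and 1 higher (15.3%), with a median of -0.64 beside -0.26. Both comparisons share the unoperated livers, which by the study's methods came from another experimental period than the operated ones, and the operation and the period cannot be told apart. Of 309 other abundant genes with a gene model under 1000 bases, 232 were lower in sham and 252 in post-PH livers, with medians of -0.58 and -0.77. When each library was centred on these short genes, 14 members were higher and 20 lower in sham livers, and 14 higher and 23 lower post-PH. Markers of other cell types were lower in the same comparisons: in sham livers 4 of 4 stellate, 3 of 5 B and T cell, 2 of 3 erythroid, 2 of 5 macrophage and 2 of 4 endothelial genes, and post-PH 4, 3, 2, 3 and 2 of them. Neutrophil markers were higher (4 of 5 in sham livers, 1 post-PH). Of 4 cholangiocyte markers, 1 was higher and 1 lower in sham livers, and 1 higher and 2 lower post-PH. Of 6 hepatocyte markers, 2 were higher and 2 lower in each comparison. The stellate markers summed to 8.27 to 8.92 RPKM in unoperated, 1.79 to 2.79 in sham and 1.66 to 3.23 in post-PH livers, and the part of these cells was not tested.

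Rps24 showed the largest fall in sham livers, from 306, 355 and 270 RPKM to 171, 141, 159, 172 and 161 (-0.94, SE 0.13, adjusted p = 7.53e-09), followed by Rpl35a (-0.92, SE 0.127, adjusted p = 7.2e-09) and Rpl35 (-0.91, SE 0.138, adjusted p = 8.29e-08). Post-PH the largest were Rpl35, from 110, 114 and 97.9 to 47.4, 47.5 and 42.7 (-1.22, SE 0.154, adjusted p = 6.77e-10), Rps24 (-1.09, SE 0.145, adjusted p = 3.44e-09) and Rpl28 (-1.04, SE 0.174, adjusted p = 7.34e-07). The 1 member that rose in both was Rpl7l1, with 14.3, 18.9 and 16.4 RPKM in unoperated, 28.3, 27.2, 31.1, 24.4 and 25.7 in sham (0.72, SE 0.114, adjusted p = 1.88e-07) and 22.9, 20.0 and 20.2 in post-PH livers (0.35, SE 0.127, adjusted p = 0.0147). The last call was lost without C4 replicate 1 or X4 replicate 4.

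Across all 80 libraries each member was correlated with the mean of the other 81. The median r was 0.88, beside 0.15 for the other 15314 genes tested against the member mean, and 64 members were above 0.8. With group means subtracted the medians were 0.83 and 0.11. These are descriptions: the libraries share their scaling, and members may share reads. The lowest were Rpl7l1 (0.24), Rps4y2 (0.27), Rpl22l1 (0.57), Rpl22 (0.59) and Rpl3 (0.59). By group means, 71 members were lowest at 1 week post-PH and 61 were highest in unoperated livers at ZT6. Rpl28 had the widest range of group means (1.57 log2), followed by Rps24 (1.37), Rpl22l1 and Rps28 (1.35 each) and Rpl35, Rpl35a and Rpl36a (1.29 each). The narrowest were those of Rpl5 (0.56), which with Rpl11 and 5S rRNA binds Mdm2 outside the ribosome, Rpl4 (0.58) and Rpl10 (0.59).

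**Figure D5:**
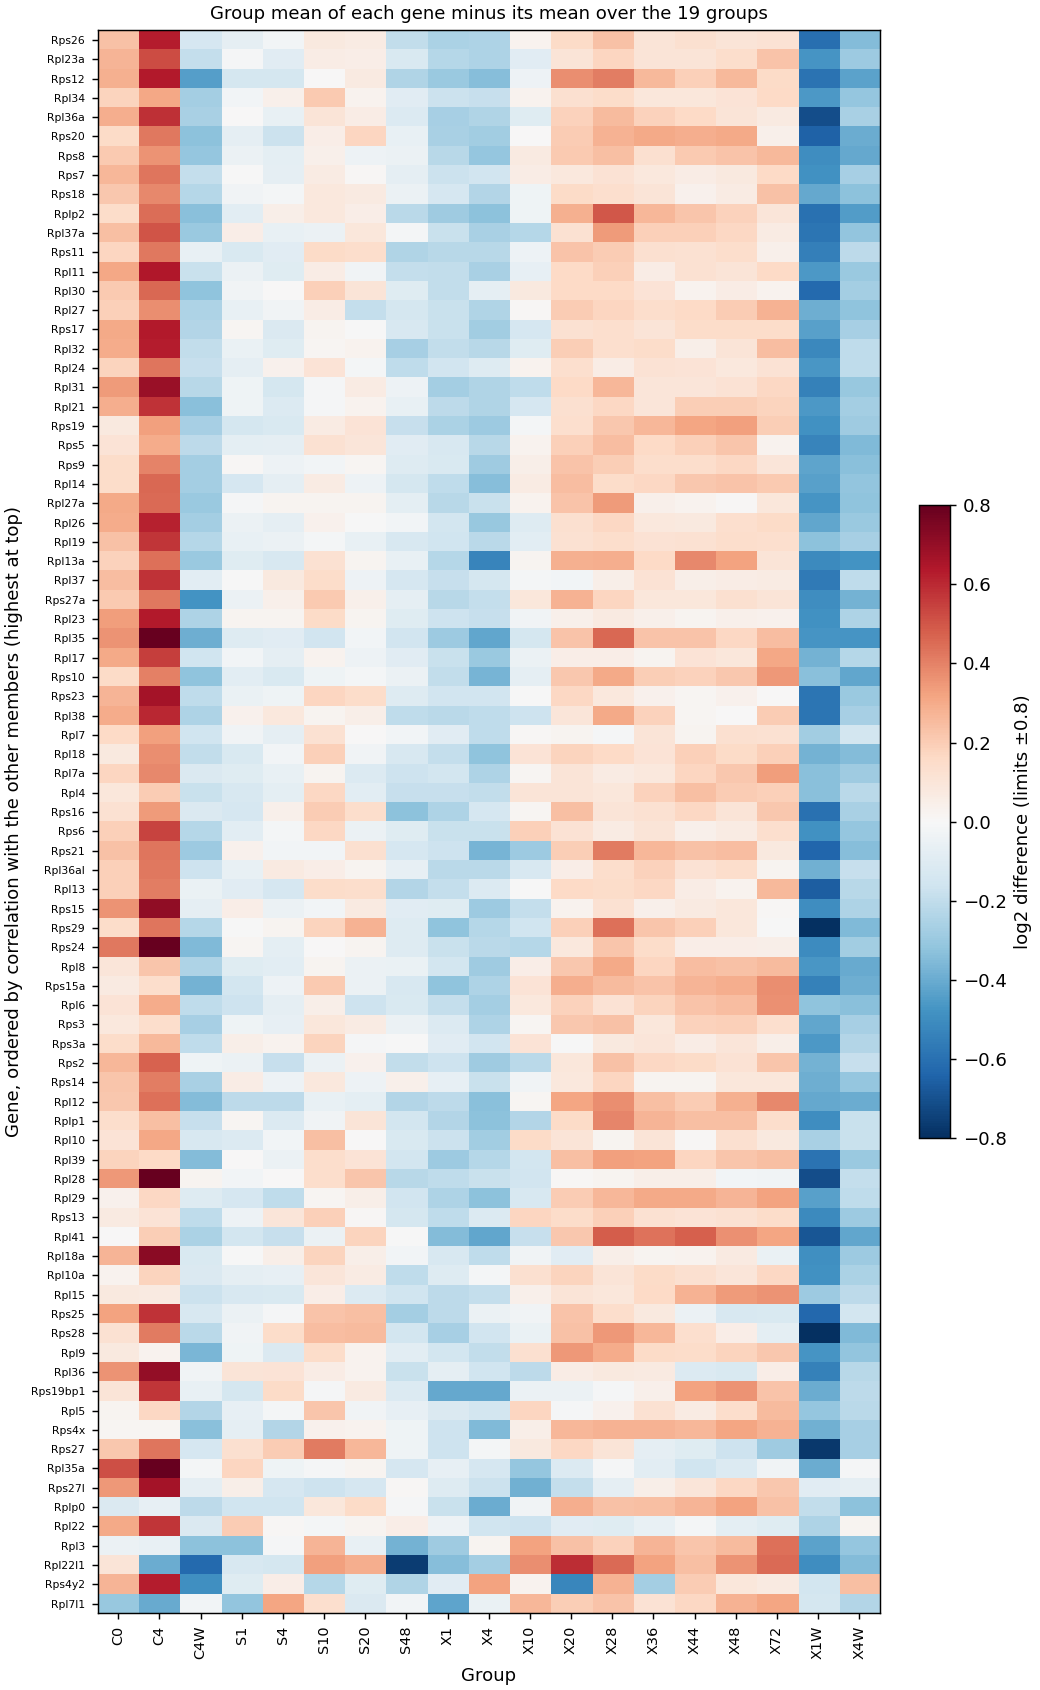
Group mean of log2(RPKM + 0.25) of each member minus its mean over the 19 groups (colour, red higher and blue lower, limits ±0.8), with members ordered from the highest (top) to the lowest (bottom) correlation with the other members. Most rows are red in C4 and blue in X1W, and the bottom rows, Rpl22l1, Rps4y2 and Rpl7l1, differ from the rest.

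The paralogs did not keep a fixed ratio to their partners. Rpl22l1 minus Rpl22 was 1.35 ± 0.46 log2 (n = 9) at 0 h, 1.82 ± 0.17 (n = 3) in sham and 2.23 ± 0.11 (n = 6) in post-PH livers at 20 h, 0.74 ± 0.42 (n = 3) and 1.99 ± 0.14 (n = 5) at 48 h, and 1.29 ± 0.02 (n = 3) at 1 week. Rps27l minus Rps27 was -0.99 ± 0.23 (n = 9) at 0 h. Post-PH it was -1.48 ± 0.18 (n = 6) at 20 h, -0.80 ± 0.18 (n = 5) at 48 h and -0.45 ± 0.21 (n = 3) at 1 week. In sham livers it was also lower at 20 h (-1.53 ± 0.09, n = 3) than at 48 h (-1.09 ± 0.03, n = 3). Rpl36al minus Rpl36a was 0.54 ± 0.11 (n = 9) at 0 h and 0.96 ± 0.09 (n = 3) at 1 week. Rpl7l1 minus Rpl7 was -2.30 ± 0.31 (n = 9) at 0 h, -2.12 ± 0.23 (n = 6) in sham and -2.17 ± 0.06 (n = 6) in post-PH livers at 1 h. From 4 h to 72 h its group means ran from -1.81 to -1.58 post-PH and from -1.94 to -1.45 in sham livers, and it was -1.70 ± 0.01 (n = 2) in unoperated livers at 4 weeks. Each difference is between RPKM values of 2 genes, and the ratios were not tested.

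The genes whose 19 group means were most like the member mean were copies of members by name or type. They were Rpl10a-ps1 (r = 0.966), Gm5428 (0.956), Gm10443 (0.954), Gm6202 (0.948) and Gm15536 (0.946), of which 4 are annotated as pseudogenes and Gm5428 as protein-coding. Among protein-coding genes without an Rpl, Rps or Gm name, a group chosen after the values were seen, the nearest were Mrpl52 (0.941) of the mitochondrial ribosome, Psmb6 (0.924), Fis1 (0.924), Psmb1 (0.911) and Psmb3 (0.909), 3 of them subunits of the proteasome.

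Among ribosomal protein genes whose names the rule leaves out are Rpsa and Fau, which encodes Rps30 fused to a ubiquitin-like protein. Rpsa rose at 20 h (0.29, SE 0.09, adjusted p = 0.0333) and 48 h against sham (0.49, SE 0.1, adjusted p = 3.61e-05) and fell at 1 week against 72 h (-0.67, SE 0.11, adjusted p = 2.98e-06). Fau fell at 1 week (-0.55, SE 0.13, adjusted p = 0.00171) and differed by 0.01 at 48 h (adjusted p = 0.964).

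Ribosome biogenesis factors, the nucleolar proteins that process rRNA and assemble the subunits, had calls against sham at hours when few or no members did. At 10 h post-PH 20 of 39 were higher than in sham livers and 0 lower, at 20 h 17 and 0, and at 48 h 20 and 0, with medians of 0.33, 0.40 and 0.32. Over all genes 5.72%, 9.02% and 40.9% were higher at these hours, so that the count at 48 h stands much nearer to the background than those at 10 h and 20 h. At 4 h 1 was higher and 4 lower. Nop56 and Nop58, core proteins of the particles that methylate rRNA, rose by 1.03 (SE 0.18, adjusted p = 6.59e-05) and 0.98 (SE 0.2, adjusted p = 0.000521) at 10 h, when 0 of 82 members were called. At 20 h the largest were Nop58 (0.83, SE 0.2, adjusted p = 0.00367) and Tsr1 (0.73, SE 0.17, adjusted p = 0.00239). At 48 h they were Nhp2 (1.07, SE 0.14, adjusted p = 1.93e-09), of the particles that make pseudouridine in rRNA, and Nop58 (0.89, SE 0.21, adjusted p = 0.000372). At 1 week against 72 h 26 fell and 0 rose, with a median of -0.59, led by Nop58 (-1.68, SE 0.23, adjusted p = 7.74e-08) and Rrs1 (-1.18, SE 0.23, adjusted p = 9.65e-05). In sham livers at 4 h 29 were higher and 5 lower than in unoperated livers (median 0.66), where 66 members were lower. The difference between the lists was not tested.

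Translation factors and other mRNAs with a known TOP tract had 0 of 19 higher and 5 lower at 4 h against sham (4.38% and 9.94% of all genes), among them Eif4b (-0.48, SE 0.1, adjusted p = 0.000403) and Npm1 (-0.44, SE 0.13, adjusted p = 0.0112). Then 4 were higher at 10 h (5.72%), 6 at 20 h (9.02%) and 10 at 48 h (40.9%), with 1 lower at 48 h (Eif4b, -0.33, SE 0.1, adjusted p = 0.00581). Hnrnpa1 rose by 1.13 (SE 0.13, adjusted p = 1.5e-10) and Nap1l1 by 0.72 (SE 0.13, adjusted p = 6.82e-06) at 48 h. At 1 week against 72 h 10 fell, led by Hnrnpa1 (-0.97, SE 0.15, adjusted p = 9.85e-07) and the elongation factor subunit Eef1g (-0.77, SE 0.11, adjusted p = 4.52e-07), and 1 rose, Eif4b (0.47, SE 0.11, adjusted p = 0.00114). Mitochondrial ribosomal proteins had 55 of 76 higher and 0 lower at 48 h against sham (median 0.35, beside 40.9% and a median of 0.27 over all genes), and 28 lower and 0 higher at 1 week against 72 h (median -0.26, beside 18.1% and -0.11). Of 13 regulators of TOP mRNAs and ribosomal protein genes, 4 were lower and 0 higher at 4 h, among them Akt1s1 (-0.65, SE 0.12, adjusted p = 5.36e-05) and Eif4ebp1 (-0.50, SE 0.12, adjusted p = 0.00223). At 48 h 5 of 13 were higher, a share below the 40.9% of all genes, and at 1 week against 72 h 0 were called in either direction. Those at 48 h included Mtor, the kinase itself, by 0.74 (SE 0.15, adjusted p = 7.68e-05), and Rheb, its activator, by 0.41 (SE 0.08, adjusted p = 5.47e-05). Eif4ebp1, a translation repressor that mTOR inactivates, was also lower at 10 h (-0.41, SE 0.12, adjusted p = 0.0123) and at 20 h (-0.43, SE 0.12, adjusted p = 0.00907).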

How the data were processed

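RNA-seq of 80 mouse liver libraries in 19 groups was used. The authors deposited log2 RPKM per gene. By their methods and processing notes, single-end reads of 100 bases from stranded poly(A) libraries were mapped to mm9 with TopHat2 2.0.13 and Bowtie2, sorted with SAMtools 0.1.19 and counted on the transcribed strand with featureCounts, and a read with several positions was divided among them. The 4 value columns that match no labelled sample were not used, and 7 labelled samples are not analysed here. Depth, estimated from the smallest step of RPKM times exon length, was 12.1 to 49.1 M reads (median 26.8 M). Replicates are separate livers.

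Values were taken as log2(RPKM + 0.25) and fitted with limma 3.58.1 (R 4.3.3), one coefficient per group, with a trended prior. Benjamini-Hochberg adjustment was over the 15396 genes above log2 RPKM -1.5 in at least 1 library. The deposited values are not counts, so limma took the place of the authors' count test. The members and all lists were chosen with earlier results of these data known. Genes are named by rule: the 3 largest rises and falls called in a comparison, extremes of level, range and co-variation, paralog pairs, the stalk proteins and Rps6, and the 2 largest of each list. Rpl41 has no gene model in GENCODE vM1. Promoter windows came from RefSeq (GRCm38.p6) and transcript windows from NCBIM37. Fits were tested on simulated data. The result of 1 gene outside the name rule is not reported here.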

Additional observations from a re-analysis of the deposited data

Results flagged for a closer look

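In 120 checks of groups of 5 to 9 libraries for a library far from the rest, of which chance alone flags about 1 in 20, 4 stood out. In X48 replicate 2 the members made up 1.49% of the summed RPKM, beside 1.79% to 1.86% in the other 4 livers at 48 h post-PH. Rps27l had 140.6 RPKM in X36 replicate 2, beside 91.7 to 98.6 in the other 5, and Rps19bp1 had 13.1 RPKM in the same library, beside 7.76 to 9.71. Rps19bp1 had 12.3 RPKM in S4 replicate 3, beside 9.45 to 9.92 in the other 4.

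By the test of the difference itself, the PH effect at 48 h exceeded that at 20 h for 2 members. The difference was 0.82 log2 for Rpl22l1 (SE 0.28, adjusted p = 0.0395 by limma) and 0.60 for Rps19bp1 (SE 0.19, adjusted p = 0.0203). For Rpl22l1 the sham livers were lower at 48 h than at 20 h, and its highest group mean was at 20 h post-PH. With libraries set to a common median or centred on short abundant genes, 0 members were higher in this test.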

How the results depend on the processing

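Many counts depended on the scale, and at 48 h against sham the members' median changed sign with it (0.27 as reported, -0.22 with libraries set to a common median). The fall at 1 week against 72 h kept its direction in every alternative run, with 40 members lower in the fit of those 2 groups alone and 67 to 79 when 1 library was left out. Counts below are of 82 members. The share of all genes called under each alternative setting was not computed, so the counts describe only how the calls of the members depended on the setting. With libraries set to a common median, they were 1 lower at 1 h, 3 lower at 4 h, 0 higher at 20 h, and 1 higher and 23 lower at 48 h post-PH against sham. On the same scale 0 were higher and 5 lower for 48 h against 20 h, 3 higher and 34 lower in sham and 2 higher in post-PH livers at 4 h against unoperated, 17 higher for 28 h against 4 h, 67 lower for 36 h against 28 h, 0 higher and 44 lower for 44 h against 20 h, and 77 lower for 1 week against 48 h sham. With RPKM rescaled to the same sum, they were 2 lower at 4 h, 21 higher at 20 h, 1 higher for 48 h against 20 h, 0 lower for 36 h against 28 h and 19 lower for 1 week against 48 h sham. Centring on short abundant genes, chosen after seeing the data, gave 2 lower at 4 h, 1 higher at 10 h, 32 higher at 20 h, 21 higher and 1 lower at 48 h, 0 higher and 1 lower for 48 h against 20 h, 14 higher and 20 lower in sham and 14 higher and 23 lower in post-PH livers at 4 h against unoperated, 17 higher and 2 lower for 28 h against 4 h, 0 higher and 15 lower for 44 h against 20 h, and 2 higher and 1 lower for 72 h against 48 h. The cause of these shifts was not tested.

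In fits of the compared groups alone, 20 were lower at 4 h, 0 higher post-PH against unoperated at 4 h, 29 higher for 28 h against 4 h, 0 lower for 36 h against 28 h and 2 lower for 44 h against 20 h. Without a filter on low values, 3 were lower at 4 h, 3 higher at 20 h, 0 higher for 44 h against 20 h and 1 higher for 48 h against 20 h. A log2 fold beyond 0.5 left 1 lower at 4 h, 0 higher at 20 h, 5 higher at 48 h, 36 lower in sham and 0 higher in post-PH livers at 4 h against unoperated, 24 higher for 28 h against 4 h, 0 lower for 36 h against 28 h, 0 higher for 44 h against 20 h and 10 lower for 1 week against 48 h sham. With post-PH replicates 1 to 3 alone 20 were lower at 10 h, and with replicates 4 to 6 alone 1 was higher at 20 h.

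Leaving out 1 library gave 1 to 4 lower at 4 h, 0 to 1 lower at 10 h (1 without X10 replicate 4), 0 to 9 higher at 20 h, 15 to 49 higher at 48 h, 0 to 3 higher for 48 h against 20 h, 0 to 1 higher post-PH against unoperated at 4 h, 27 to 69 higher for 28 h against 4 h, 0 to 2 lower for 36 h against 28 h, 0 to 3 higher for 44 h against 20 h, 0 to 2 lower for 72 h against 48 h and 7 to 33 lower for 1 week against 48 h sham. Of 31 results for single named members, 18 were called in every such fit, and with libraries set to a common median 9 of the 31 were no longer called. Replicate numbers did not pair the samples: same-numbered libraries deviated together with r from -0.19 to 0.27. A replicate block gave 9 lower at 4 h, 11 lower at 10 h, 1 lower at 20 h and 4 higher for 44 h against 20 h.

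Median differences from 0 h, which carry no test, were on the common median scale -0.32 in sham livers at 10 h, -0.31 at 20 h and -0.10 at 4 h, and post-PH -0.24 at 4 h, -0.41 at 10 h, -0.28 at 20 h, -0.44 at 36 h, -0.59 at 44 h, -0.56 at 48 h, -0.45 at 72 h, -0.90 at 1 week and -0.62 at 4 weeks. With RPKM at the same sum they were 0.029 in sham livers at 10 h and -0.18 at 48 h, and post-PH 0.12 at 20 h, 0.13 at 36 h, 0.13 at 44 h, 0.16 at 48 h, 0.20 at 72 h and -0.47 at 1 week. With C0 replicates 4 to 6 alone it was -0.56 at 1 week. The planned difference of the 60 h livers from 0 h was not run, since no column was used for them.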
